A study of Mus musculus with 9 samples.

Results

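The Schlafen genes are a mouse gene family induced by interferon and by bacterial products, and the genes described here are Slfn1, Slfn2, Slfn3, Slfn4, Slfn5, Slfn8 and Slfn9. They were taken by symbol from a table of counts for 51826 genes, each symbol matched 1 row, and all 7 were among the 14458 genes that passed the filter on low counts; Slfn1 had no counts in vehicle cells and passed through the other groups. The libraries came from RAW 264.7, a mouse macrophage cell line, and measured polyadenylated RNA in 3 groups of 3 libraries. One group received 100 µg/mL calycosin, a plant isoflavone, for 24 h and then 300 ng/mL LPS, the bacterial lipopolysaccharide sensed by the receptor TLR4, for 6 h. The LPS group received 300 ng/mL LPS for 6 h without calycosin, and the vehicle group received solvent only. The labels name the 3 libraries of a group as biological replicates without saying how the cultures were separated. No group received calycosin alone, and the duration of the vehicle treatment is not given in the sources used here.

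Macrophages that sense LPS make type I interferon, which signals through the JAK kinases, STAT proteins and IRF9 to the genes that carry an interferon response element. Many Schlafen genes are among these targets. All Schlafen proteins share a Schlafen core; the short members Slfn1 and Slfn2 have little beyond it, Slfn3 and Slfn4 are of intermediate length, and Slfn5, Slfn8 and Slfn9 are long and carry a helicase-like domain. The best known roles are in the control of growth and quiescence of lymphocytes and myeloid cells and in the binding or cutting of tRNA.

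The 7 genes lie in 1 cluster on mouse chromosome 11, which spans 82942341 to 83286726 in GRCm38, or 344 kb, with the antisense gene Slfn5os and Slfn14 at its ends. Slfn5 (82951349 to 82964840) is on the plus strand, Slfn9 (82978390 to 82991830) and Slfn8 (83002158 to 83020810) are on the minus strand together with the pseudogene Slfn10-ps (83028130 to 83040042), and Slfn2 (83065112 to 83070678), Slfn1 (83116849 to 83122670), Slfn4 (83175186 to 83190216) and Slfn3 (83191330 to 83215154) follow on the plus strand.

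The sequences just before the start sites differed between these runs of neighbouring genes. They were read from the RefSeq promoter table (GRCm38.p6), in which all 7 members matched. Slfn9 and Slfn8 held a near-identical stretch around a match to the interferon response element (GAAA, any 2 bases, GAAA), read on the opposite strand. The match began 45 bases before the RefSeq start site in Slfn9 and 48 bases before it in Slfn8. Slfn8 has another RefSeq start site, and the same match began 136 bases before that one. Slfn5 held a match on the sense strand 155 bases before its RefSeq start. The GENCODE span of Slfn5 given above begins earlier, at 82951349, so its stretch lies inside that span, though in no annotated exon. The stretches of Slfn9 and Slfn8 lie outside the spans of their genes. These stretches are shown because the 3 genes with a match were the long members; capitals mark the match.
Slfn9, minus strand, chr11:82991846-82991925: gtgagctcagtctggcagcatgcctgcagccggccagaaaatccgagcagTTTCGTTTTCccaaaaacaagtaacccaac
Slfn8, minus strand, chr11:83020829-83020908: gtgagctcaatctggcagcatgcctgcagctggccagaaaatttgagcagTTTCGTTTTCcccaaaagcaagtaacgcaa
Slfn5, plus strand, chr11:82951927-82951976: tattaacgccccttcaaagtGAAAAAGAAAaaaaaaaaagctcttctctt

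The match was found in 3 of 7 members, or 4 of their 8 promoter windows, and in 3.44% of 32851 promoter windows of the same 300 bases. All motifs were searched on both strands. The STAT element, TTC and GAA with any 3 bases between, was found in 0 of 7 members and in 8.3% of all windows, and the NF-kappaB-like motif, GGG and CC with any 5 bases between, was found in Slfn9 and Slfn1 and in 50.8% of all windows. A search for shared words, added after the sequences had been seen, found the 9-base word ACTTCCTGG on the sense strand of Slfn2, Slfn1, Slfn4 and Slfn3, beginning 55, 74, 73 and 42 bases before the start, and in 0.843% of all windows. The 11-base form ACTTCCTGGAG was in Slfn2, Slfn1 and Slfn4 and in 0.0731% of all windows. These are the short and intermediate members that follow each other on the plus strand; capitals mark the word. A match is a description of the letters in this window and no site. The 2 words were picked as the longest that at least 4, or at least 3, members shared in the 250 bases before the start. Their presence in members was thus fixed by the search, and the shares of all 300-base windows are no test of it.
Slfn2, plus strand, chr11:83065037-83065090: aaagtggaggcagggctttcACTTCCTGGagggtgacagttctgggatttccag
Slfn1, plus strand, chr11:83116726-83116779: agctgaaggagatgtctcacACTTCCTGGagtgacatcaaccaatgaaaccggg
Slfn4, plus strand, chr11:83175093-83175146: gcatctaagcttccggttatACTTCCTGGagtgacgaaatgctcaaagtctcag
Slfn3, plus strand, chr11:83191268-83191321: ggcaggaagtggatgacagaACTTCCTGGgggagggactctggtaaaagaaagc

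Total counts per library ran from 27784737 to 38524105. Mitochondrially encoded genes took 7.45% of the counts in calycosin plus LPS replicate 2, against 17.2% and 19.4% in the other 2 of its group, and 13.0% to 14.7% in LPS libraries. They took 21.9% in vehicle replicate 3, against 3.79% and 3.68% in the other 2 of its group. These 2 libraries stand apart. Macrophage genes such as Csf1r and Cd68 were abundant in every library, while Mertk was at or near 0. Of 22 markers of other cell types, 10 were at 0 in all libraries, and the defining T cell genes Cd3e, Cd3d and Cd8a were at or near 0. The summed level of these 22 genes was 5.39 to 5.76 CPM with calycosin plus LPS, 32.6 to 34.6 CPM with LPS and 8.24 to 10.9 CPM with vehicle, most of it from the kinase Lck, which averaged 3.58 CPM with calycosin plus LPS, 27.5 CPM with LPS and 8.37 CPM with vehicle. Its part in the Schlafen values was not tested. CPM scales a gene's count to the TMM-scaled library size, and a bulk value cannot tell apart fewer cells of a type and less RNA per cell.

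With LPS, all 7 members were higher than with vehicle and no library of 1 group overlapped the other. The share of all genes tested without such overlap was not counted. Of all genes tested, 56.3% were called, 27.3% higher and 28.9% lower. A call needed an adjusted p under 0.05 in the quasi-likelihood test of edgeR, with Benjamini-Hochberg adjustment over all genes tested. With calycosin before LPS, 5 of 7 members were lower than with LPS alone, and Slfn8 and Slfn3 were not called; 29.1% of all genes tested were called, 12.9% lower and 16.1% higher. In limma on log2(TPM + 1) the lower members were 2 of 7, Slfn5 and Slfn1. All 7 members were still higher with calycosin plus LPS than with vehicle, where 49% of the genes tested were called and 25.4% were higher. The median log2 fold change over the 7 members was 4.98 for LPS against vehicle and -1.01 for calycosin plus LPS against LPS, beside -0.07 and 0.02 over all genes tested. The TMM factors behind these values were 1.05 to 1.42 in vehicle libraries and 0.79 to 0.81 in LPS libraries. In limma on log2(TPM + 1) all 7 members were still higher with LPS than with vehicle, by less. The log2 fold changes there included 4.50 in Slfn5, 2.79 in Slfn9 and 1.03 in Slfn3 (adjusted p 0.0152 in limma), beside a median of -0.61 over all genes.

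**Figure D1:**
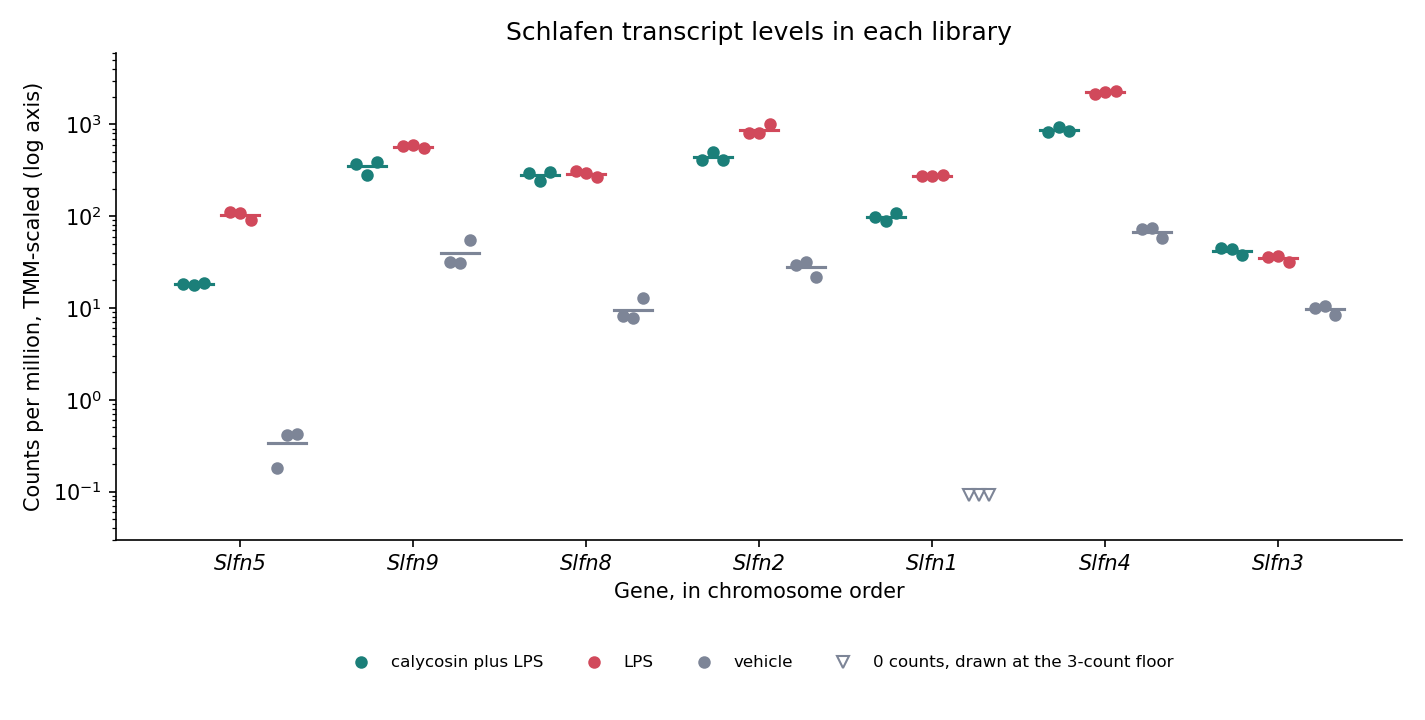
Level of each Schlafen gene in each library, in CPM (counts scaled to the TMM-scaled library size) on a log axis; points are libraries, lines are group means, and open triangles mark Slfn1 in vehicle cells, which had 0 counts and is drawn at the 3-count floor. All LPS points lie above the vehicle points, and the calycosin plus LPS points lie below the LPS points in Slfn5, Slfn9, Slfn2, Slfn1 and Slfn4.

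Of the short members, Slfn1, whose overexpression slows the growth of mouse thymocytes, had 97.9, 88.1 and 108 CPM in calycosin plus LPS libraries and 276, 274 and 283 CPM in LPS libraries, and no counts in vehicle libraries. The LPS libraries lay close together and all 3 were above every calycosin plus LPS library. Slfn1 was at least 3907-fold higher with LPS than with vehicle and at least 1378-fold higher with calycosin plus LPS than with vehicle, taking 3 counts per library as the floor for vehicle. With calycosin plus LPS it was 2.84-fold lower than with LPS (log2 fold change -1.50, SE 0.12, adjusted p 1.73e-04 by edgeR's quasi-likelihood test).

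Slfn2 keeps mouse T cells and monocytes quiescent, and it protects tRNA from cutting by the nuclease angiogenin in mouse T cells. It had 408, 497 and 406 CPM with calycosin plus LPS, 802, 808 and 1023 CPM with LPS, and 29.7, 31.6 and 21.8 CPM with vehicle. None of these groups overlapped. The rise with LPS was 31.6-fold (log2 fold change 4.98, SE 0.20, adjusted p 4.62e-08 in edgeR), and the level with calycosin plus LPS was 2.01-fold lower than with LPS (log2 fold change -1.01, SE 0.17, adjusted p 0.00251 in edgeR). On the deposited TPM scale the groups nearly met: calycosin plus LPS replicate 2, the library of low mitochondrial share, had 624 TPM, against 380.3 and 341 TPM in the other 2, and the lowest LPS library had 623 TPM. The lower call for Slfn2 was lost on that scale (limma on log2(TPM + 1), log2 fold change -0.67, adjusted p 0.244), where its difference from the median of all genes was -0.92, beside -1.03 in edgeR.

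Of the intermediate members, Slfn4 was the most abundant. It is known as a gene that rises in activated mouse macrophages and must fall for normal macrophage differentiation. It had 832, 939 and 839 CPM with calycosin plus LPS, 2169.7, 2238 and 2312 CPM with LPS, and 72.7, 73.6 and 57.4 CPM with vehicle. The groups were far apart relative to their spread. Slfn4 rose 33.0-fold with LPS (log2 fold change 5.04, SE 0.16, adjusted p 1.21e-08 in edgeR) and was 2.57-fold lower with calycosin plus LPS than after LPS alone (log2 fold change -1.36, SE 0.14, adjusted p 2.14e-04 in edgeR). That lower call was lost in limma on log2(TPM + 1), where the log2 fold change was -1.04, or -1.29 relative to the median of all genes, and the adjusted p 0.0567.

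Slfn3, a close relative of Slfn4 that begins about 1 kb after Slfn4 ends and is known from rat intestinal epithelium as a differentiation gene, was much less abundant. It had 44.7, 43.5 and 37.7 CPM with calycosin plus LPS, 35.7, 37.1 and 32.1 CPM with LPS, and 10.1, 10.4 and 8.36 CPM with vehicle. It rose 3.62-fold with LPS (log2 fold change 1.86, SE 0.13, adjusted p 2.45e-06 in edgeR), less than any other member. The calycosin plus LPS libraries all lay above the LPS libraries, by a narrow gap, and the difference did not pass the test (log2 fold change 0.26, 95% interval -0.03 to 0.55, adjusted p 0.158 in edgeR). With the mitochondrial share as a covariate it did pass (log2 fold change 0.27, adjusted p 0.0457 in edgeR).

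Of the long members, Slfn5, whose human counterpart restrains interferon-driven transcription and herpesvirus replication, had both the lowest level with vehicle after Slfn1 and the strongest fall with calycosin. It had 18.4, 17.9 and 18.8 CPM with calycosin plus LPS, 111, 107 and 91.5 CPM with LPS, and 0.181, 0.411 and 0.426 CPM with vehicle, where the raw counts were 9, 20 and 14. The calycosin plus LPS libraries agreed within 1 CPM and were far below every LPS library. Slfn5 rose 308-fold with LPS (log2 fold change 8.27, SE 0.26, adjusted p 1.07e-08 in edgeR) and was 5.63-fold lower with calycosin plus LPS than after LPS alone (log2 fold change -2.49, SE 0.19, adjusted p 5.94e-05 in edgeR). It then still stood 5.77 log2 units above vehicle (SE 0.25).

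Slfn9 and Slfn8 are close paralogs next to each other, relatives of the human and rat Schlafens that cut tRNA. Slfn9 had 373, 282 and 391 CPM with calycosin plus LPS, 577, 594 and 551 CPM with LPS, and 31.5, 31.2 and 55.2 CPM with vehicle. Vehicle replicate 3, the library of high mitochondrial share, was the high one of its group, and calycosin plus LPS replicate 2 the low one. Slfn9 rose 14.6-fold with LPS (log2 fold change 3.87, SE 0.25, adjusted p 1.06e-06 in edgeR). The level with calycosin plus LPS was lower than with LPS (log2 fold change -0.72, SE 0.22, adjusted p 0.0372 in edgeR), but this call was lost when any 1 of the 6 libraries compared was left out (log2 fold change -0.80 to -0.58, adjusted p 0.063 to 0.125) and in limma on log2(TPM + 1) (adjusted p 0.153).

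Slfn8 had 299, 243 and 302 CPM with calycosin plus LPS, 307, 297 and 269 CPM with LPS, and 8.13, 7.77 and 13.0 CPM with vehicle. The libraries with and without calycosin overlapped, and both were far above vehicle. Slfn8 rose 30.4-fold with LPS (log2 fold change 4.92, SE 0.22, adjusted p 9.75e-08 in edgeR), and the difference between calycosin plus LPS and LPS was -0.05 on the log2 scale (95% interval -0.47 to 0.37, adjusted p 0.864 in edgeR). The direction of that small difference turned with the scaling: on deposited TPM, Slfn8 had 133, 144 and 120.0 TPM with calycosin plus LPS and 113, 109 and 102 TPM with LPS, which do not overlap, and limma on log2(TPM + 1) gave 0.29 (adjusted p 0.277). On that scale the median over all genes was itself shifted by 0.23 from its edgeR value, and relative to the median Slfn8 differed by 0.04.

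**Figure D2:**
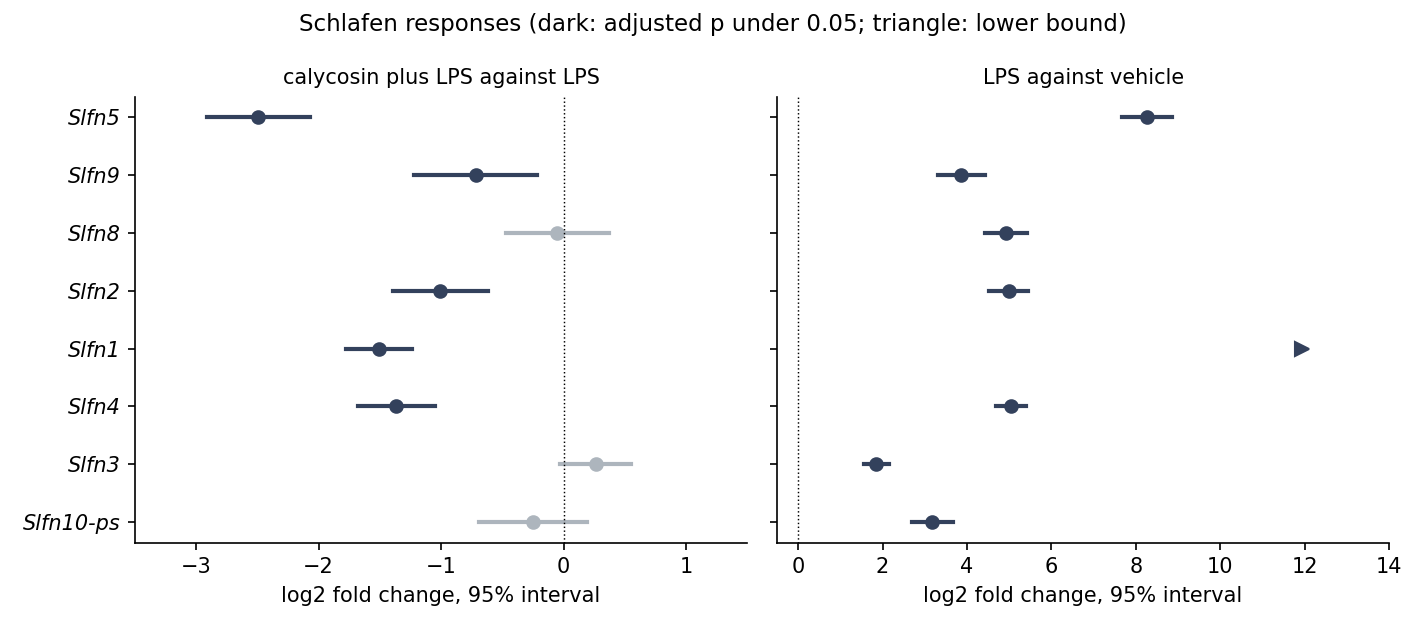
Log2 fold changes with 95% intervals for calycosin plus LPS against LPS (left) and LPS against vehicle (right), from edgeR's quasi-likelihood fit; dark points have an adjusted p below 0.05 and the triangle is the lower bound for Slfn1. Slfn5 lies farthest to the left at -2.49, while the intervals of Slfn8, Slfn3 and the pseudogene Slfn10-ps include 0.

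The pseudogene Slfn10-ps, which lies between Slfn8 and Slfn2, was higher with LPS than with vehicle and was not called between calycosin plus LPS and LPS. It had 111, 88.7 and 105 CPM with calycosin plus LPS, 136, 133 and 93.2 CPM with LPS, and 11.4, 11.6 and 17.0 CPM with vehicle. Its log2 fold change was 3.18 (SE 0.21) for LPS against vehicle, and -0.25 (95% interval -0.69 to 0.19, adjusted p 0.369 in edgeR) for calycosin plus LPS against LPS, where the groups overlapped. Slfn14, known from platelets and red cells, had too few counts to be tested and averaged 0.037 CPM with calycosin plus LPS, 0.477 CPM with LPS and 0.047 CPM with vehicle. Slfnl1, which lies on chromosome 4, had 2 counts in 1 vehicle library and none elsewhere, and Slfn5os had none in any library.

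Levels between genes were compared per transcript length, on the deposited TPM scale. With calycosin plus LPS the order was Slfn2 (448 ± 153 TPM), Slfn4 (407 ± 115), Slfn8 (133 ± 12.2), Slfn9 (115 ± 4.57), Slfn1 (86.9 ± 10.2), Slfn3 (36.2 ± 9.68) and Slfn5 (6.06 ± 1.00 TPM; SD, n = 3 each), and Slfn2 and Slfn4 overlapped. With LPS the order was Slfn4 (817 ± 54.5 TPM), Slfn2 (696 ± 123), Slfn1 (196 ± 9.36), Slfn9 (148 ± 4.94), Slfn8 (108 ± 5.85), Slfn5 (25.5 ± 2.34) and Slfn3 (23.9 ± 1.24 TPM; SD, n = 3 each), with overlap between Slfn4 and Slfn2 and between Slfn5 and Slfn3. With vehicle it was Slfn4 (46.7 ± 17.5 TPM), Slfn2 (39.9 ± 16.8), Slfn9 (20.5 ± 0.598), Slfn3 (11.8 ± 4.38), Slfn8 (6.37 ± 0.289), Slfn5 (0.173 ± 0.144) and Slfn1 at 0 (TPM; SD, n = 3 each), where Slfn2 overlapped with both of its neighbours. Slfn8 stood above Slfn9 with calycosin plus LPS, with no overlap between their libraries, and below it with LPS and with vehicle.

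The 7 genes summed to 1232 ± 303 TPM with calycosin plus LPS, 2014 ± 172 TPM with LPS and 125 ± 39.5 TPM with vehicle (SD, n = 3 each). Slfn4 ranked 102 of 51799 genes by mean TPM with LPS, and Slfn2 ranked 128. In the make-up of this sum, Slfn4 and Slfn2 together led in every library. Slfn3 took 2.94% ± 0.254 with calycosin plus LPS, 1.19% ± 0.153 with LPS and 9.23% ± 0.704 with vehicle (SD, n = 3 each). Slfn8 took 11.02% ± 1.62 with calycosin plus LPS, 5.40% ± 0.715 with LPS and 5.48% ± 1.89 with vehicle (SD, n = 3 each). Both held a larger share of the family's transcripts with calycosin plus LPS than after LPS alone, without overlap.

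**Figure D3:**
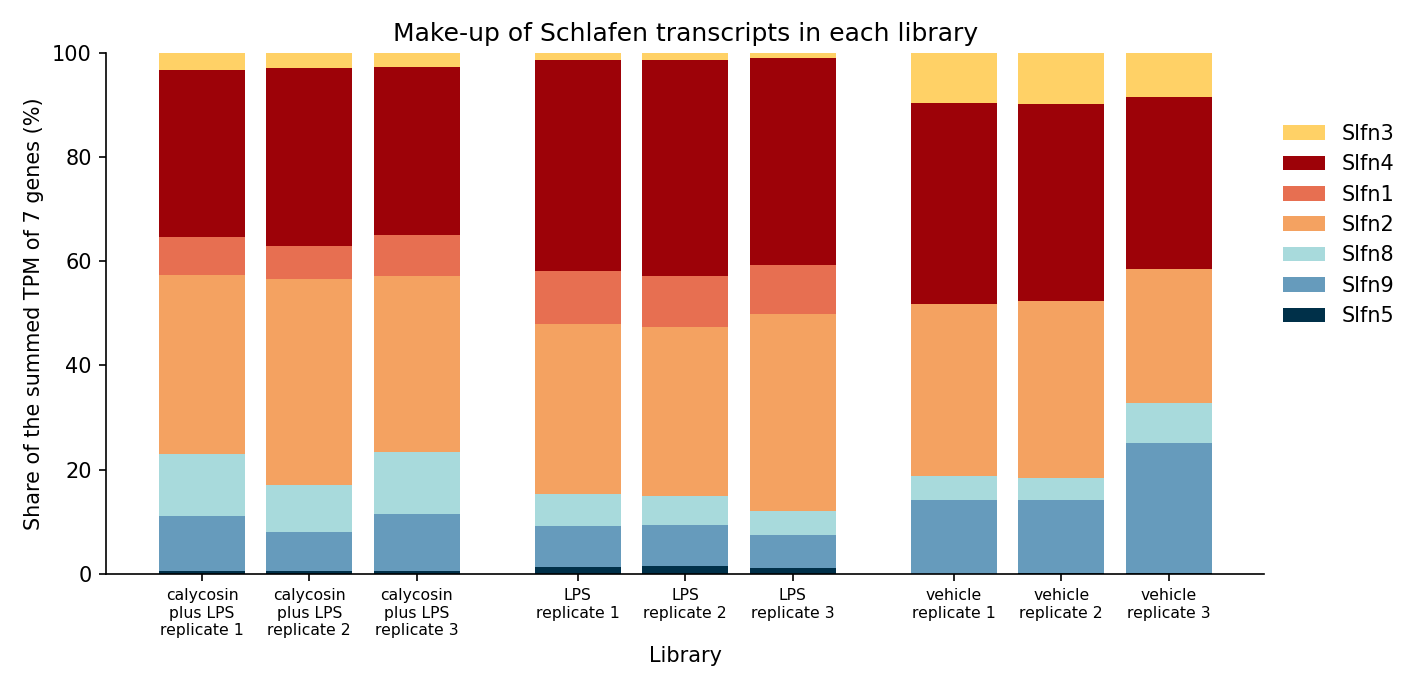
Share of each member in the summed TPM of the 7 Schlafen genes, 1 bar per library. Slfn4 and Slfn2 take the largest shares in every library, and Slfn3 and Slfn9 take more of the sum in vehicle libraries than in the libraries of the other groups.

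Ratios of neighbouring members within a library do not depend on how libraries are scaled. The 6 neighbouring pairs gave 14 comparisons, because the pairs with Slfn1 have no vehicle ratio. With 3 libraries against 3, the exact permutation test, taken on both sides, cannot go below 0.1, which is 0.127 after Benjamini-Hochberg adjustment over the 14, so none could pass 0.05. The log2 ratio of Slfn8 to Slfn9 was -0.319, -0.214 and -0.377 with calycosin plus LPS, -0.908, -0.997 and -1.033 with LPS, and -1.953, -2.003 and -2.091 with vehicle. The groups were separate in each comparison, with Slfn8 gaining on Slfn9 by 1.04 log2 units with LPS over vehicle and by a further 0.68 with calycosin plus LPS over LPS (exact p = 0.1 for each, the smallest possible).

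The log2 ratio of Slfn3 to Slfn4 was -4.22, -4.43 and -4.47 with calycosin plus LPS, -5.92, -5.91 and -6.17 with LPS, and -2.85, -2.82 and -2.78 with vehicle. Slfn3 thus lost 3.19 log2 units on its neighbour with LPS against vehicle and stood 1.63 units higher with calycosin plus LPS than after LPS alone, without overlap (exact p = 0.1 for each, the smallest possible). Slfn9 over Slfn5 was lower by 4.37 with LPS against vehicle and higher by 1.76 with calycosin plus LPS against LPS. Slfn2 over Slfn8 was 0.95 lower with calycosin plus LPS than after LPS alone, again without overlap, and Slfn1 over Slfn2 was 0.51 lower. Slfn4 over Slfn1 averaged 3.15 ± 0.23 with calycosin plus LPS and 3.01 ± 0.03 with LPS (SD, n = 3 each), a difference of 0.14 with overlapping libraries (exact permutation p = 0.5).

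**Figure D4:**
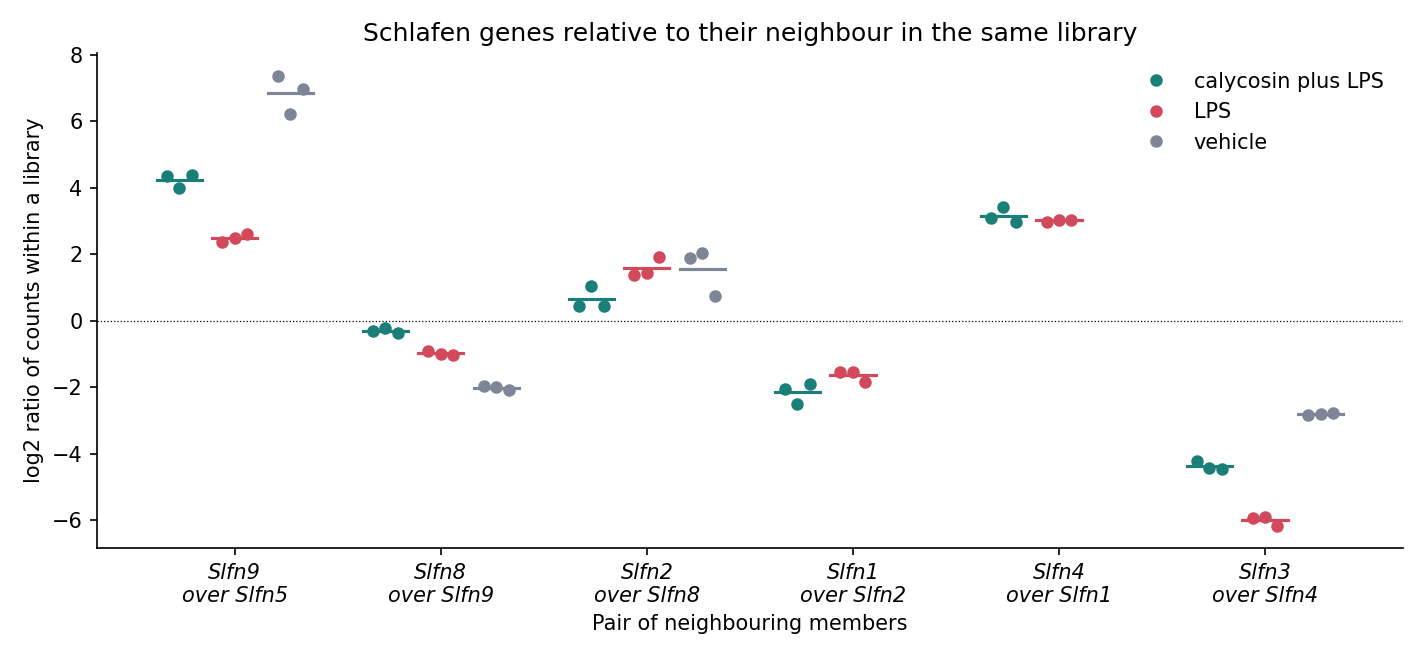
Log2 ratio of the counts of neighbouring Schlafen genes within each library; points are libraries and lines are group means, and pairs with Slfn1 have no vehicle ratio because Slfn1 had no counts there. For Slfn8 over Slfn9 and Slfn3 over Slfn4 the 3 groups are separate, and for Slfn4 over Slfn1 the calycosin plus LPS and LPS libraries overlap.

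Reads from near-identical copies can be split between them by the counting, and the handling of such reads is not given in the sources used here. Of the distinct 50-base words of each gene's annotated transcripts, 14.6% in Slfn8, 11.2% in Slfn9, 8.16% in Slfn4, 7.39% in Slfn3, 4.27% in Slfn2, 0.606% in Slfn1 and 0% in Slfn5 also occurred in another Schlafen gene. Slfn4 and Slfn3 also shared 4.02% and 6.45% of their words with Gm11427, a transcribed pseudogene in the cluster. Gm11427 averaged 56.8 CPM with calycosin plus LPS, 58.5 CPM with LPS and 44.5 CPM with vehicle. It was left out of the sums below. Counted against any other gene on either strand, the shares were 16.0% in Slfn3, 14.6% in Slfn8, 11.9% in Slfn9, 11.3% in Slfn4 and 11.1% in Slfn5. With Slfn8, Slfn9 and Slfn10-ps summed, the log2 fold change was 3.99 for LPS against vehicle and -0.43 for calycosin plus LPS against LPS (adjusted p 0.153 in edgeR). With Slfn3 and Slfn4 summed it was 4.87 and -1.32 (adjusted p 2.43e-04 in edgeR), close to the values of Slfn4, which holds most of the counts. Slfn5 shares 8.84% of its exon bases with the antisense Slfn5os, and without strand in the counting reads of the pair cannot be told apart.

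The genes whose profile across the 9 libraries was most like that of each member were ranked by the root mean square difference of centred log2 CPM over 8770 genes. Slfn4 was nearest to Plaur, the urokinase receptor (0.096), then to Slfn2 (0.184), and Slfn2 was nearest to the chemokine gene Ccl4 (0.165), then to Slfn4. These were the only members named in each other's nearest 3. Slfn9 was nearest to Setdb2, a histone methyltransferase (0.090), Slfn8 to Trim34b (0.131), Slfn3 to Prnp, the prion protein gene (0.122), and Slfn5 to Fbn1, fibrillin (0.332), then to Ptgs2, the inducible cyclooxygenase (0.481). Slfn1, which had no counts in vehicle libraries, was nearest to Il6 (0.262). Between members, Slfn8 differed from its paralog Slfn9 by 0.704 and Slfn3 from Slfn4 by 1.31, both more than Slfn2 from Slfn4.

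In the interferon pathway around the family, 13 of 16 signalling genes were higher with LPS than with vehicle and none was lower (median log2 fold change 2.20). Those higher made up 81.25%, beside 27.3% of all genes tested. Ifnb1, the interferon-beta gene, averaged 5.47 ± 1.07 CPM with calycosin plus LPS, 3.90 ± 1.04 CPM with LPS and 0.013 ± 0.023 CPM with vehicle (SD, n = 3 each). Ifnb1 was not called for calycosin plus LPS against LPS (log2 fold change 0.49, SE 0.32, adjusted p 0.277 in edgeR). The inhibitors Usp18 (log2 fold change 4.58, SE 0.20), Socs3 (4.81, SE 0.21) and Socs1 (4.68, SE 0.24) rose with LPS. Between calycosin plus LPS and LPS, 7 of the 16 were lower and 1 was higher (median -0.22), or 43.75% and 6.25%. Of all genes tested, 12.9% were lower and 16.1% higher. The higher one was Socs1, which was 1.01 log2 units higher (SE 0.18), while Socs3 was among the lower ones (-2.51, SE 0.19). Irf9, a DNA-binding partner of STAT proteins, was also lower (-0.84, SE 0.11), as was Stat3 (-0.90, SE 0.10).

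Of 7 interferon regulatory factors tested, 6 were higher with LPS than with vehicle and none was lower, with the largest log2 fold changes in Irf7 (6.03, SE 0.14) and Irf1 (3.72, SE 0.15). Those higher made up 85.7%, beside 27.3% of all genes tested. Calycosin plus LPS against LPS split them, with 3 higher and 2 lower, or 42.9% and 28.6%, beside 16.1% and 12.9% of all genes tested. Irf1 (0.80, SE 0.13) and Irf4 (0.71, SE 0.18) were among the higher ones, and Irf7 (-0.86, SE 0.11) and Irf5 (-0.57, SE 0.14) were lower. The edgeR call of Irf5 was lost without LPS replicate 1 (log2 fold change -0.43, adjusted p 0.0652), where 3 of the 7 were called instead of 5, and without calycosin plus LPS replicate 1 (-0.49, adjusted p 0.0725), and that of Irf4 without LPS replicate 2 (0.64, adjusted p 0.057). In limma on log2(TPM + 1) 2 of the 7 were called. The whole list of 30 interferon-induced effectors was higher with LPS than with vehicle (median log2 fold change 5.93), beside 27.3% of all genes tested. Among them was Rsad2, at 7453 ± 253 CPM with LPS and 1.61 CPM with vehicle. With calycosin plus LPS against LPS, 14 of these 30 effectors were lower and none was higher (median -0.46). Those lower made up 46.7%, beside 12.9% of all genes tested. The largest changes were in Ifit2 (-1.18, SE 0.13), Rsad2 (-1.02, SE 0.17), Oas2 (-1.02, SE 0.20) and Ifit1 (-0.91, SE 0.13). The number called was 7 to 9 without any 1 of LPS replicates 1, 2 and 3 or calycosin plus LPS replicates 1 and 3, 22 without both libraries that stand apart, and 1 in limma on log2(TPM + 1).

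Of the tRNA-cutting nucleases and their partners, 5 of 9 listed genes were tested. With LPS against vehicle the tRNA methyltransferase gene Trdmt1 was higher (0.92, SE 0.17); on the TPM scale it was at -0.0019, where the median of all genes was -0.61, and so 0.60 above that median. Rnh1, the angiogenin inhibitor (-0.63, SE 0.24), and Nsun2, a tRNA methyltransferase (-0.39, SE 0.09), were lower, and the call of Rnh1 was lost without single libraries (adjusted p up to 0.136 in edgeR). Between calycosin plus LPS and LPS none of the 5 was called in edgeR, where 29.1% of all genes tested were. DESeq2 called 2 of the 5. Rnh1 averaged 99.5 ± 14.5 CPM with calycosin plus LPS and 159 ± 17.1 CPM with LPS (SD, n = 3 each). Nsun2 averaged 101 ± 0.933 CPM with calycosin plus LPS and 119 ± 1.25 CPM with LPS (SD, n = 3 each). Of 14 genes of quiescence and G1 control, 4 were higher and 4 lower with LPS than with vehicle, and calycosin plus LPS against LPS gave 4 higher and 5 lower. The shares with LPS, 28.6% in each direction, were near those of all genes tested (27.3% higher and 28.9% lower). For calycosin plus LPS against LPS they were 28.6% higher and 35.7% lower, beside 16.1% and 12.9% of all genes tested. In the second comparison the anti-proliferative genes Tob1 (1.07, SE 0.17) and Foxo1 (1.02, SE 0.23) were higher, and Btg2 (-0.98, SE 0.22) and Ccnd2, cyclin D2 (-0.81, SE 0.09), were lower.

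Of 83 other genes counted from 1 Mb before to 1 Mb after the cluster, 34 were tested, and 22 of them were higher and 6 lower with LPS than with vehicle (median log2 fold change 1.04), while calycosin plus LPS against LPS gave 6 higher and 15 lower (median -0.33). These shares were 64.7% higher and 17.6% lower with LPS, beside 27.3% and 28.9% of all genes tested, and 17.6% higher and 44.1% lower for calycosin plus LPS against LPS, beside 16.1% and 12.9%. This window holds the CC chemokine genes. The nearest called genes before the cluster were Rad51d (-1.29, SE 0.27), Rffl (2.68, SE 0.25) and Lig3 (-0.41, SE 0.12) for LPS against vehicle, and those after it were Ap2b1 (0.65, SE 0.11, and 0.49 above the median of all genes on the TPM scale, where its value was -0.12), Taf15 (1.15, SE 0.14) and Heatr9, at 10.7 CPM with LPS and 0.0069 CPM with vehicle. For calycosin plus LPS against LPS, Rffl was lower (-2.01, SE 0.24), Lig3 was higher (0.82, SE 0.13) and Gm11423 was higher (2.11, SE 0.49) on the first side, and Ap2b1 (-0.45, SE 0.11) was lower and Mmp28 (1.42, SE 0.21) was higher on the second. These flanking genes did not share 1 direction with the family in either comparison. Inside the cluster, 5 other genes were tested. With LPS against vehicle, Gm20234 (4.23, SE 0.32), 1190001M18Rik (3.66, SE 0.80, at 0.62 CPM with LPS), Gm11425 (2.80, SE 0.17) and AI662270 (0.93, SE 0.27) were called higher. Gm11427 was not called (0.40, SE 0.16). For calycosin plus LPS against LPS only Gm20234 was called, as lower (-2.13, SE 0.28). The others were not called (adjusted p 0.331 to 0.867 in edgeR). Gm20234 (83065752 to 83071246) is annotated as antisense, and its span overlaps that of Slfn2, though their annotated exons share no bases.

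**Figure D5:**
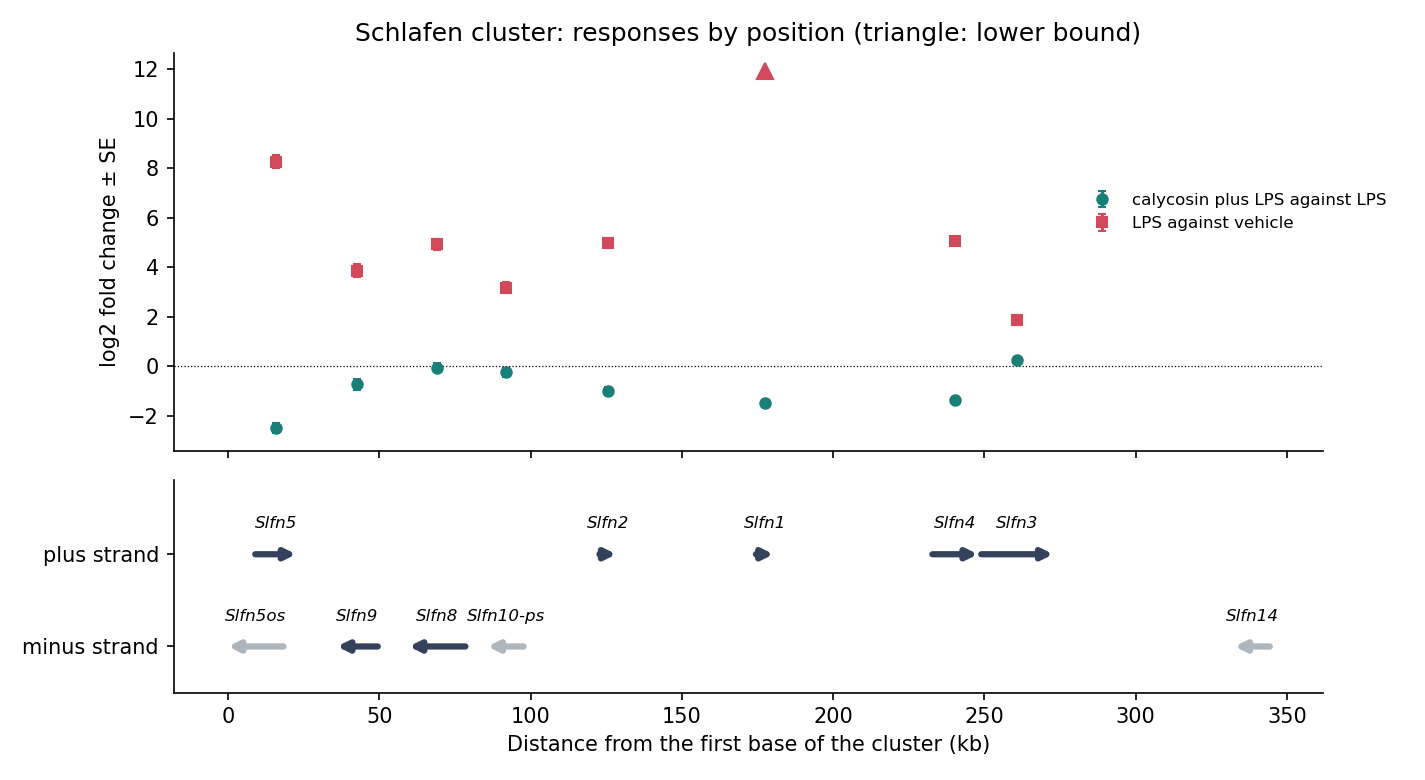
Log2 fold change with its SE for the Schlafen genes against their position in the cluster, in kb from its first base, with the strand of each gene below; the triangle is the lower bound for Slfn1. Slfn5 at one end and the run of Slfn2, Slfn1 and Slfn4 were lower with calycosin plus LPS than after LPS alone. Slfn9, between Slfn5 and Slfn8, was also lower, at -0.72, a call that was lost when single libraries were left out. Slfn8, Slfn10-ps and Slfn3 lie near 0.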

How the data were processed

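Per the labels' protocols, polyadenylated RNA from 9 cultures was sequenced, and per the submitters' processing notes Trimmomatic 0.36, HISAT2 2.0 and StringTie 1.3.3b were used with mm10; the counter, strandedness and handling of reads with several matches were not given in the sources used here. The authors deposited raw counts for 51826 genes and, for 51799 of them, TPM values. Counts were tested with edgeR 4.0.16 (quasi-likelihood fit of all 9 libraries, TMM factors, filterByExpr) with Benjamini-Hochberg adjustment over the 14458 genes kept. A count of 0 was set at a floor of 3 counts per library, which covers counting error only. CPM used the TMM-scaled library size, and ratios within a library a prior count of 0.5. The alternatives were DESeq2 1.42.0, limma 3.58.1 on log2(TPM + 1) and log2(TPM + 0.1), no filter, a replicate block, the mitochondrial share as a covariate, summed paralogs and fits without single libraries. Gene positions and transcripts came from GENCODE M21, promoters from RefSeq. The test was tested on simulated data. The members and the lists were chosen with earlier results of these data known. Named genes were all members and other Schlafen genes, up to 4 called genes per list with the largest change (or the 2 most abundant where none was called), the 3 nearest called neighbours on each side, and the 3 most like genes per member; a few genes that this rule names are not reported here. The other genes tested inside the cluster were named in addition. The p-values measure the spread between these cultures. No same-group libraries were duplicates.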

Additional observations from a re-analysis of the deposited data

How the results depend on the processing

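Of 390 values of single members recomputed under 19 alternatives, 371 kept their direction and their side of the threshold, 13 lost their call, 1 gained one and 5 turned. Slfn8 in calycosin plus LPS against LPS turned to 0.29 with both TPM pseudocounts, 0.067 without both libraries that stand apart, and ran from -0.10 to 0.049 (without calycosin plus LPS replicate 2) without single libraries; Slfn10-ps turned to 0.091 and 0.093 with TPM. Slfn3 summed with Slfn4 turned to -1.32 by construction. Also with TPM, at both pseudocounts where 2 values are given, the sign turned in Trdmt1 (-0.0019 and -0.0025) and Ap2b1 (-0.12) for LPS against vehicle, Nsun2 (0.094 and 0.095) for calycosin plus LPS against LPS and Lig3 (-0.028) for calycosin plus LPS against vehicle. Relative to the median of all genes with the pseudocount of 1, these 4 kept their edgeR direction, at 0.60, 0.49, -0.16 and 0.30, as did Slfn10-ps (-0.16), while Slfn8 was at 0.04 (-0.05 with 0.1).

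In limma on log2(TPM + 1) the median over all genes shifted by -0.54 for LPS against vehicle, 0.23 for calycosin plus LPS against LPS and -0.33 for calycosin plus LPS against vehicle. The genes higher and lower were 1476 and 6962 there (1481 and 6960 with the 0.1 pseudocount) against 3954 and 4180 in edgeR for LPS against vehicle. They were 1423 and 335 (333 lower with 0.1) against 2333 and 1871 for calycosin plus LPS against LPS, and 1500 (1496) higher against 3672 for calycosin plus LPS against vehicle. In the second comparison 2 members were then lower instead of 5, and the genes called were 2 of interferon signalling, 2 (1 with 0.1) of the regulatory factors, 1 of the effectors, 2 of quiescence and 12 of the neighbourhood. In the others they were 2 of the tRNA list in both, and 4 of quiescence and 15 of the neighbourhood against vehicle. The ratios on TPM were -3.82 and -2.12 for Slfn9 over Slfn5 and 1.21 and 1.87 for Slfn8 over Slfn9, for LPS and for calycosin plus LPS against vehicle. The cause was not tested.

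With the mitochondrial share as a covariate 1 member (Slfn3) was higher with calycosin plus LPS than with LPS, 3307 genes were lower and 23 effectors and 3 genes of the tRNA list were called; without both libraries that stand apart 22 effectors and 2 of the tRNA list were called. DESeq2, and edgeR with its size factors, called 2 of the tRNA list, and the fit of only the 2 groups 1. Leaving out single libraries, genes lower in calycosin plus LPS against LPS ran from 1224 (without calycosin plus LPS replicate 1) to 2576, called regulatory factors from 3 to 6, effectors from 7 to 19 and the tRNA list from 0 to 2. Slfn2 over Slfn8 for LPS against vehicle, a difference of 0.04, ran from -0.36 (without vehicle replicate 3) to 0.27 and was -0.13 without LPS replicate 3. Same-numbered libraries correlated at -0.17 to 0.36 in their deviations from the group means, and differently numbered ones at -0.47 to 0.36. With 3 libraries a group these ranges cannot show whether replicate numbers mark a pairing. The replicate block changed no call of a member; with it Slfn9 differed by -0.74 for calycosin plus LPS against LPS. Genes with few counts, such as Slfn14 and Slfn5 in vehicle cells, are limited by depth.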
